A study of Caenorhabditis elegans with 16 samples.

Results

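The 10 genes described here encode collagens of *C. elegans* that shape the body and lie outside the group of furrow collagens: *dpy-5*, *dpy-13*, *dpy-17*, *rol-6*, *rol-8*, *sqt-1*, *sqt-2*, *sqt-3*, *lon-3* and *ram-2*. They were taken by symbol, and some of them were chosen by their RPB-6 occupancy, as top-ranked genes of the profiles. They make up 10 of 19983 protein-coding genes with at least 1 GATC fragment. Occupancy was measured by Targeted DamID (TaDa), in which the bacterial adenine methylase Dam, fused to the RNA polymerase subunit RPB-6, marks GATC sites that the polymerase comes near. Seam cells carried *dam:rpb-6* under *srf-3i1*, an intronic enhancer of *srf-3* placed before a minimal *pes-10* promoter (strain MBA698). The hypodermis carried it under *dpy-7syn1* (strain MBA688), and *dam:NLS-GFP* under the same promoters (strains MBA692 and MBA693) was the control. All strains hold a single-copy MosSCI insertion, were fed dam-/dcm- bacteria and were collected as whole animals at L4, 48 h after seeding, or at L2, 24 h after seeding. The 16 samples are 2 replicates of each fusion in seam cells at L4, seam cells at L2, hypodermis at L4 and hypodermis at L2.

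The cuticle is an extracellular matrix of crosslinked collagens that the epidermis, made up of seam cells and hypodermal syncytia, secretes anew for every moult. Cuticle collagens are short proteins with stretches of Gly-X-Y repeats, in which glycine alternates with pairs of other residues, and their chains form trimers before secretion. Mutants of such genes often differ in body shape. Dpy mutants are short and stout, Rol mutants are twisted and roll as they move, Sqt mutants can be short or rolling, and Lon mutants are long. DPY-31, a protease of the cuticle pathway, acts on the product of *sqt-3*, and the dominant roller allele of *rol-6* is widely used to mark transgenic animals.

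All 10 genes are short. Read from WBcel235, their coding sequences hold 284 codons in *dpy-5* to 352 in *dpy-17*. Glycine takes 18.8% of the codons in *sqt-1* to 23.6% in *dpy-5*, and each gene has 50 to 57 Gly-X-Y triplets. The most alike proteins were those of *dpy-13* and *sqt-3*, with 62.1% identity, and *rol-6* and *lon-3* had 60.3%. The least alike were those of *dpy-17* and *sqt-2*, with 27.7%. Stretches of 50 bases from the fragments of 9 of the genes occurred nowhere else in the genome, and in *sqt-3* 4 of 2391 such stretches also occurred elsewhere. The genes differed in GATC sites, which set how finely occupancy can be read. *dpy-17* has 7.74 sites per kb, *dpy-13* 5.47 and *dpy-5* 1.17, *sqt-2* has 0, and the median over protein-coding genes is 2.96.

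The following stretches of coding sequence lie between neighbouring GATC sites, which are in capitals, and are shown because each score belongs to such a stretch. They are given 5′ to 3′ along the gene in coordinates of WBcel235. Each is a wholly coding fragment that scored above the mean of its gene, and for *sqt-3* the first 200 bases of a fragment of 384 bp.
dpy-13, chrIV:4235852-4236117, + strand: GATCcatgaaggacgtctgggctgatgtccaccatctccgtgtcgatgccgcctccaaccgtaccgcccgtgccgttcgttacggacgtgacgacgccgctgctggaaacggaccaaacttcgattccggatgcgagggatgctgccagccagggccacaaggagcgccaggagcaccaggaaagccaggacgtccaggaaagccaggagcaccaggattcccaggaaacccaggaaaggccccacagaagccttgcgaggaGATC
dpy-17, chrIII:5107480-5107649, + strand: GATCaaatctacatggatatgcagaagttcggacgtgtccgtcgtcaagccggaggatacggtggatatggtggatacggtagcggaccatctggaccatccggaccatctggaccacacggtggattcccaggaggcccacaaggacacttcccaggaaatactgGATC
rol-6, chrII:8733822-8733843, + strand: GATCcgatggaaagccagGATC
rol-8, chrII:7544483-7544515, + strand: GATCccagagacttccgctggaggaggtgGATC
sqt-1, chrII:11337046-11337071, - strand: GATCatccggtcaaatcggaaaGATC
sqt-3, chrV:12353286-12353485, + strand: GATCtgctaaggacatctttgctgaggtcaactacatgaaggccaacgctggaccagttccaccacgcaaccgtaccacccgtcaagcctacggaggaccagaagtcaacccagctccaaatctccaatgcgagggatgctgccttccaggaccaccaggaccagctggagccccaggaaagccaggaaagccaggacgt
lon-3, chrV:12198039-12198232, - strand: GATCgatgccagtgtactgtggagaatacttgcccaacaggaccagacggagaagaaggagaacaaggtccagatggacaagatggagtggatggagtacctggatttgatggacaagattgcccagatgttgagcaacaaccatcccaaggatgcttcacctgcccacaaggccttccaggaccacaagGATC
ram-2, chrII:11015727-11015975, - strand: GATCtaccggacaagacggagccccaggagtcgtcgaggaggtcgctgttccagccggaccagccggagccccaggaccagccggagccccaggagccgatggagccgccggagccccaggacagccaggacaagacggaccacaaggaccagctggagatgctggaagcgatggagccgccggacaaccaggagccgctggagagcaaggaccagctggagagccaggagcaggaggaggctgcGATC
The stretches of *rol-6*, *sqt-1* and *rol-8* hold only 22, 26 and 33 bases with both GATC sites. Neighbouring short fragments can carry equal scores, as in *rol-8*, where that of 29 bp and the next of 27 bp both averaged 5.98 over the 8 samples.

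Each score is log2(*dam:rpb-6/dam:NLS-GFP*) of a GATC fragment, and the occupancy of a gene is the mean score of its fragments weighted by the overlapped length. Read counts were not used here, so the depth of each sample is unknown. A single profile was left out, that of replicate 1 over control 1 in L4 seam cells, since it followed the ratio of both controls (r = 0.996 over fragments). In it the 10 genes lay between -0.28 and 1.26. Over all genes the replicates correlated with r = 0.716 in seam cells at L4, 0.309 in seam cells at L2, 0.772 in hypodermis at L4 and 0.803 in hypodermis at L2. Seam cells at L2 thus had the least alike replicates. Of 9 seam cell markers, 5 were above 1 in both replicates in seam cells at L4, 3 in seam cells at L2 and 0 in hypodermis at either stage. The group means of 3 hypodermal markers were 0.21 to 1.12 in seam cells at L4, 0.30 to 0.54 in seam cells at L2, 0.71 to 1.38 in hypodermis at L4 and 1.03 to 1.84 in hypodermis at L2. Those of 4 body wall muscle genes were -0.43 to 0.14 in seam cells at L4 and 0.89 to 1.84 in seam cells at L2, against -1.25 to -0.61 in hypodermis at L4 and -1.09 to -0.45 in hypodermis at L2. Of these, 0 were above 1 in both replicates of seam cells at L2. All 4 were above 1 in replicate 2 (1.52 to 2.84) and below it in replicate 1 (0.17 to 0.84). The part of this in the values of seam cells at L2 was not tested. All 4 intestinal genes had group means of at most 0.34, and of 4 neuronal genes *snb-1* was above it.

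Occupancy differed greatly among the 10 genes. In the mean over the groups *dpy-13*, *ram-2*, *rol-8*, *lon-3* and *sqt-3* ranked 1, 2, 3, 4 and 5 of all genes, with 6.49, 5.13, 5.06, 4.86 and 4.81 on the log2 scale. *sqt-1* (3.04) and *rol-6* (2.196) were lower, *dpy-17* (1.07) and *dpy-5* (0.99) lower still, and *sqt-2* averaged 0.024. Since levels chose some of the genes, they are a description with no test. Occupancy was above 3 in both replicates for 7 of the 10 genes in seam cells at L4 (0.325% of all genes), 4 in seam cells at L2 (0.045%), 6 in hypodermis at L4 (0.255%) and 5 in hypodermis at L2 (0.335%). It was above 1 in both for 8 (3.78% of all genes), 6 (1.48%), 7 (3.16%) and 7 (5.3%) in the same groups. Neighbours in the order of levels overlapped between replicates in 2 of 9 pairs in seam cells at L4, 7 in seam cells at L2, 4 in hypodermis at L4 and 6 in hypodermis at L2.

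**Figure D1:**
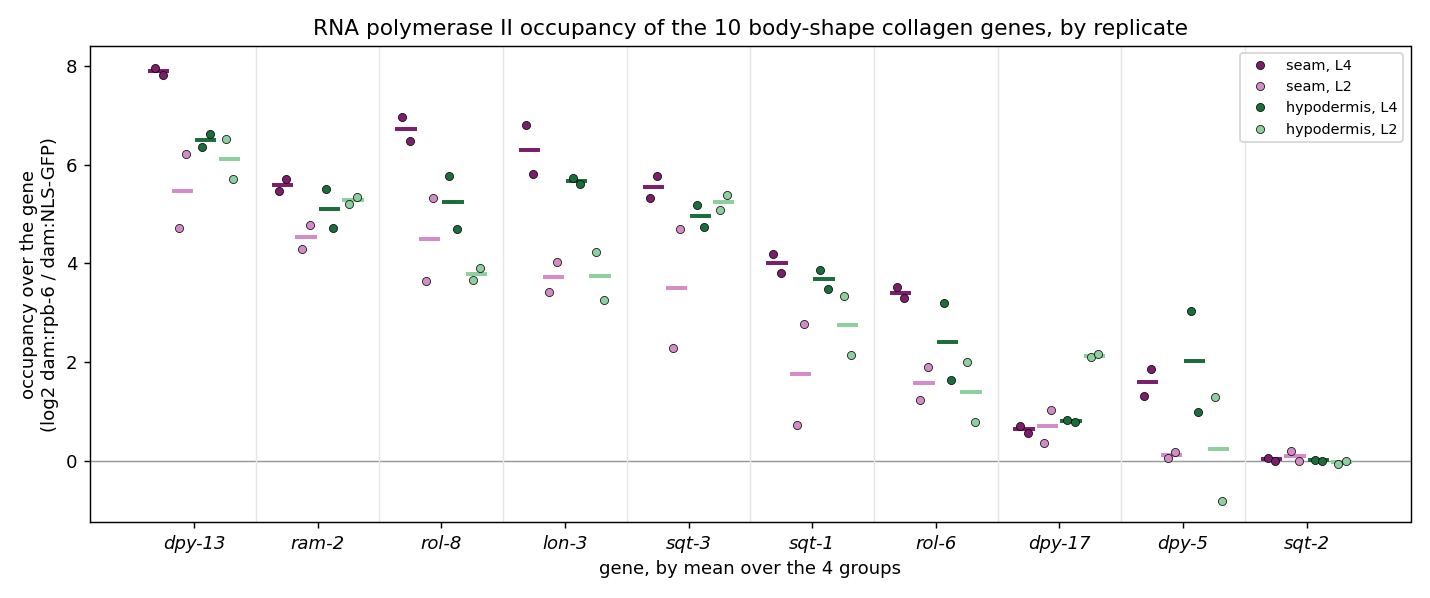
Occupancy of each gene, log2(*dam:rpb-6/dam:NLS-GFP*), in the 2 replicates (points) and their mean (bars) of seam cells at L4 and L2 and hypodermis at L4 and L2. *dpy-13* has 7.97 and 7.83 in seam cells at L4, *dpy-17* is highest in hypodermis at L2, and *sqt-2* stays between -0.071 and 0.19.

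Of the Dpy genes, *dpy-13* (WBGene00001074, chrIV:4235614-4236710, 7 fragments) had the highest occupancy of all genes in each group, with 7.97 and 7.83 in seam cells at L4 and 4.72 and 6.20 in seam cells at L2, and 6.35 and 6.63 in hypodermis at L4 and 6.52 and 5.70 in hypodermis at L2. Both values of seam cells at L4 lay above the other 6, and both values of seam cells at L2 below those of hypodermis at L4. *dpy-17* (WBGene00001076, chrIII:5107330-5108492, 11 fragments) had 0.71 and 0.56 in seam cells at L4 and 0.37 and 1.03 in seam cells at L2, and 0.83 and 0.79 in hypodermis at L4 and 2.10 and 2.15 in hypodermis at L2. Its values in hypodermis at L2 were alike and above the other 6. *dpy-5* (WBGene00001067, chrI:5432197-5433051, 2 fragments) had 1.32 and 1.86 in seam cells at L4 and 0.061 and 0.18 in seam cells at L2, and 3.04 and 0.99 in hypodermis at L4 and 1.30 and -0.81 in hypodermis at L2. Its replicates lay far apart in hypodermis and overlapped between the stages there.

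Of the Rol genes, *rol-8* (WBGene00004398, chrII:7544108-7545335, 8 fragments) had 6.97 and 6.48 in seam cells at L4 and 3.64 and 5.33 in seam cells at L2, and 5.78 and 4.70 in hypodermis at L4 and 3.67 and 3.90 in hypodermis at L2. In each cell type both values at L4 were above both at L2. *rol-6* (WBGene00004397, chrII:8733050-8734239, 3 fragments) was lower, with 3.52 and 3.29 in seam cells at L4 and 1.24 and 1.91 in seam cells at L2, and 3.19 and 1.63 in hypodermis at L4 and 1.99 and 0.79 in hypodermis at L2. Its stages overlapped in hypodermis but not in seam cells.

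Of the Sqt genes, *sqt-3* (WBGene00005018, chrV:12352745-12354320, 6 fragments) had 5.33 and 5.78 in seam cells at L4 and 2.29 and 4.70 in seam cells at L2, and 5.19 and 4.74 in hypodermis at L4 and 5.09 and 5.39 in hypodermis at L2. Replicate 1 of seam cells at L2 was far below the other 7 values. *sqt-1* (WBGene00005016, chrII:11336693-11337837, 6 fragments) had 4.19 and 3.80 in seam cells at L4 and 0.73 and 2.78 in seam cells at L2, and 3.87 and 3.49 in hypodermis at L4 and 3.34 and 2.14 in hypodermis at L2. It too was lowest in replicate 1 of seam cells at L2. *sqt-2* (WBGene00005017, chrII:23325-24458) has a single fragment of 2280 bp, longer than the gene, and lay between -0.071 and 0.19 in the 8 samples.

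*lon-3* (WBGene00003057, chrV:12197437-12198645, 5 fragments), whose loss makes long animals, had 6.79 and 5.80 in seam cells at L4 and 3.42 and 4.03 in seam cells at L2, and 5.73 and 5.62 in hypodermis at L4 and 4.23 and 3.26 in hypodermis at L2. Its stages did not overlap in either cell type. It lies in an intron of *ogdh-2* on the other strand, and TaDa does not record the strand. Over 28 fragments of *ogdh-2* more than 1000 bp from *lon-3*, the mean score was between 0.062 and 1.10, below every value of *lon-3*. *ram-2* (WBGene00004300, chrII:11015589-11016881, 6 fragments), named for misshapen rays of the male tail, had 5.47 and 5.72 in seam cells at L4 and 4.30 and 4.78 in seam cells at L2, and 5.50 and 4.72 in hypodermis at L4 and 5.205 and 5.35 in hypodermis at L2. Its 8 values had an SD of 0.48, against 0.68 or more for the other genes apart from *sqt-2*.

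L4 was compared with L2 within each cell type. In seam cells, both L4 values lay above both L2 values for 8 of the 10 genes, all but *dpy-17* and *sqt-2* (11.1% of all genes), and below for 0 (24.1%). limma, fitted over all genes, called 0 genes at an adjusted p under 0.05 (0%) and had 1760 at an unadjusted p under 0.05. At the unadjusted level 7 of the 10 genes were higher at L4 (3.31% of all genes) and 0 lower (5.5%). The median difference of the 10 genes was 1.95 on the log2 scale, against -0.065 over all genes. The greatest differences by limma were those of *lon-3*, 2.58 (SE 0.48, adjusted p = 0.373), and *dpy-13*, 2.43 (SE 0.54, adjusted p = 0.413). Those of *sqt-1* (2.24), *rol-8* (2.24), *sqt-3* (2.06), *rol-6* (1.83) and *ram-2* (1.06) had adjusted p between 0.447 and 0.55. For *dpy-5* the 95% interval ran from -0.88 to 3.81.

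The seam cell comparison rests in part on replicate 1 of L2, in which *sqt-3* and *sqt-1* were lowest. Without it 3 of the 10 genes (*dpy-13*, *sqt-3* and *lon-3*) were higher at L4 at an unadjusted p under 0.05 (3.85% of all genes) and 1, *dpy-17*, was lower (6.33%). Without replicate 2 of L2, 6 were higher (5.66%) and 0 lower (13.6%). The difference of *sqt-3* was 0.86 without replicate 1 and 3.27 without replicate 2, that of *sqt-1* 1.22 and 3.27, and that of *rol-8* 1.396 and 3.08. All stayed above 0. Leaving out any 1 replicate, the difference ran from 1.69 to 3.17 for *dpy-13*, 2.08 to 3.07 for *lon-3* and 0.82 to 1.30 for *ram-2*. With the profile of replicate 1 over control 1 in L4 seam cells put back alone, an alternative added after seeing the data in which both L4 values share control 1, the differences between the stages were -1.29 for *dpy-13*, -1.32 for *rol-8*, -0.081 for *sqt-3*, -0.96 for *lon-3* and -1.05 for *ram-2*. As whole animals were collected, occupancy in a larger share of transgene cells and more occupancy per cell cannot be told apart in any comparison. The paper also states that DamID follows changes over time poorly, as carried-over methylation is hard to exclude. Its part in the values at L4 was not tested.

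In hypodermis, both L4 values lay above both L2 values for *rol-8*, *sqt-1* and *lon-3* (9.9% of all genes) and below for *dpy-17* (18.5%). limma called 0 genes (0%), with 876 at an unadjusted p under 0.05. At the unadjusted level *lon-3* was higher at L4 (0.931% of all genes), by 1.93 (SE 0.48, adjusted p = 0.792). *dpy-17* was lower (3.45% of all genes), with a limma difference of -1.32 (SE 0.22, adjusted p = 0.548). Leaving out any 1 replicate, the difference ran from 1.44 to 2.42 for *lon-3* and from -1.35 to -1.29 for *dpy-17*. With all replicates the other genes ranged from -0.28 for *sqt-3* to 1.77 for *dpy-5*. The median of the 10 was 0.66, against -0.007 over all genes. In seam cells the difference of *dpy-17* was -0.067, with a 95% interval from -0.63 to 0.50.

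**Figure D2:**
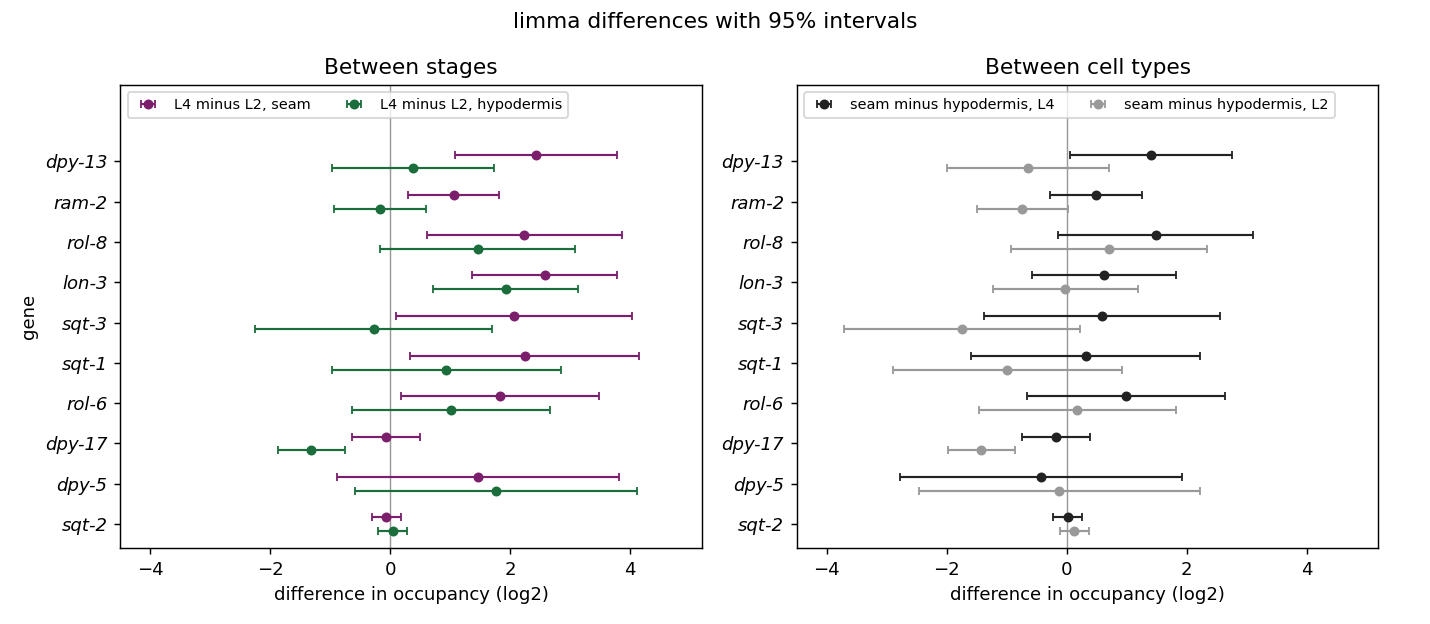
Differences in occupancy on the log2 scale (limma, points) with 95% intervals, for L4 minus L2 within each cell type and for seam cells minus hypodermis at L4 and at L2. Between the stages, 7 of the 10 intervals lie above 0 in seam cells before adjustment, and in hypodermis that of *lon-3* lies above 0 and that of *dpy-17* below.

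Seam cells were compared with hypodermis at each stage. At L4 both seam cell values lay above both hypodermal values for *dpy-13*, *rol-6*, *rol-8*, *sqt-3* and *lon-3* (19.8% of all genes) and below for *dpy-17* (12.8%). limma called 0 genes (0%), with 963 at an unadjusted p under 0.05. At the unadjusted level *dpy-13* was higher in seam cells (2.57% of all genes), by 1.41 (SE 0.54, adjusted p = 1), and 0 of the 10 genes were lower (2.25%). Which of the 10 genes passed at the unadjusted level changed with the replicate left out. The difference of *dpy-13* then ran from 1.27 to 1.54. With the left-out profile put back alone the difference of *dpy-13* was -2.32. At L2 both seam cell values lay below both hypodermal values for *dpy-17*, *sqt-3* and *ram-2* (15.2% of all genes) and above for 0 (24.1%). limma called 0 genes (0%), with 2073 at an unadjusted p under 0.05. At the unadjusted level *dpy-17* was lower in seam cells (5.49% of all genes), with a limma difference of -1.42 (SE 0.22, adjusted p = 0.186), and 0 of the 10 genes were higher (4.88%). Without replicate 2 of seam cells at L2, 5 of the 10 genes (*dpy-13*, *dpy-17*, *sqt-1*, *sqt-3* and *ram-2*) were lower in seam cells at the unadjusted level (7.79% of all genes) and 1, *sqt-2*, was higher (14.2%). Without replicate 1 of seam cells at L2, *dpy-17* was lower (5.21%) and *rol-8* higher (5.34%). Leaving out any 1 replicate, the difference of *dpy-17* ran from -1.76 to -1.09. The median difference of the 10 genes was 0.54 at L4 and -0.39 at L2, against 0.007 and 0.058 over all genes.

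Whether the stage difference itself differed between seam cells and hypodermis was tested as an interaction. limma called 0 genes (0%), with 1177 at an unadjusted p under 0.05. At the unadjusted level L4 minus L2 was higher in seam cells than in hypodermis for *dpy-13*, *dpy-17* and *ram-2* (3.2% of all genes). It was lower for 0 of the 10 genes (2.69%). For *dpy-17* it was -0.067 in seam cells and -1.32 in hypodermis, so the larger change was the fall in hypodermis. The limma differences of the interaction were 2.05 (SE 0.76, adjusted p = 0.82) for *dpy-13*, 1.25 (SE 0.31, adjusted p = 0.778) for *dpy-17* and 1.23 (SE 0.43, adjusted p = 0.82) for *ram-2*. With the left-out profile put back alone those of *dpy-13* and *ram-2* were -1.67 and -0.88. Without replicate 1 of seam cells at L2 that of *dpy-13* was 1.31, and 2 of the 10 genes, *dpy-17* and *sqt-3*, were at an unadjusted p under 0.05 (3.72% of all genes). Without replicate 2 it was 2.79, and 5 genes were (*dpy-13*, *dpy-17*, *sqt-1*, *sqt-3* and *ram-2*; 5.66%). Leaving out any 1 replicate, the difference of *dpy-17* ran from 0.92 to 1.58 and that of *ram-2* from 0.84 to 1.61.

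Single fragments showed where along the genes the signal lay. In *dpy-13* the fragment over the start averaged 2.21 over the 8 samples, and the 5 that follow averaged 6.41, 7.71, 7.15, 6.59 and 7.22. The fragment across the gene end averaged 5.82, and the next 3 averaged 4.43, 3.22 and 1.03. The signal was thus lower over the start than over the coding part and trailed off past the end. The start fragment was not alike in all groups, with 4.43 and 3.24 in seam cells at L4 and 0.82 and 0.34 in seam cells at L2. The fragment of *dpy-13* printed above was the highest of the gene on average and scored 5.49 to 9.22. In *sqt-3* the first fragments averaged 0.80 and 1.09, and the following ones 3.56, 6.32, 6.25 and 4.85. Its profile was likewise lower over the start than over the coding part.

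In *rol-8* the fragment across the start averaged 1.65, that centred 582.5 bp into the gene 6.08, and that across the end 3.95. In *lon-3* the corresponding values were 3.75 across the start, 5.81 in the highest fragment and 4.36 across the end. Both genes were thus highest within the coding part. In *sqt-1* a coding fragment of 381 bp averaged 5.32 and was the highest of the gene in 7 of 8 samples. In *dpy-17* the 3 fragments that follow the start scored 1.36 to 1.99 in hypodermis at L4, against 3.02 to 3.46 in hypodermis at L2. They did not overlap between the stages.

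**Figure D3:**
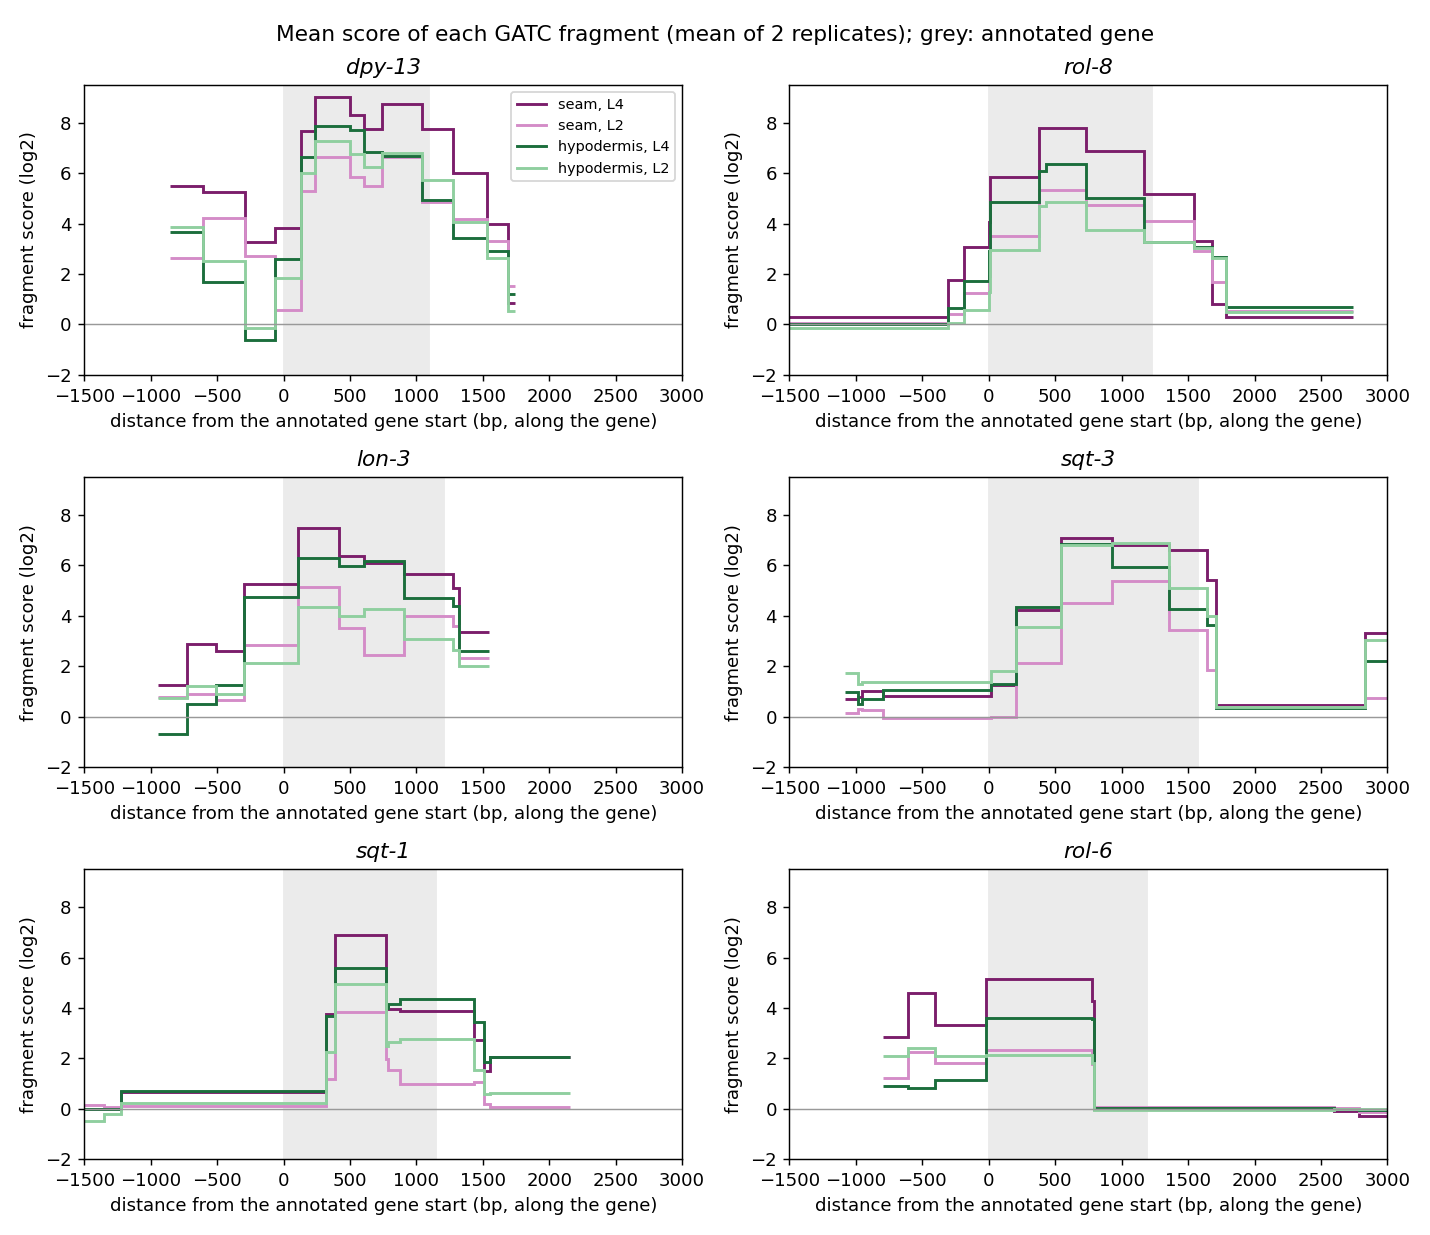
Mean score of each GATC fragment (2 replicates, log2) along 6 of the genes in seam cells at L4 and L2 and hypodermis at L4 and L2, against the distance from the gene start in bp. Scores are lower over the start of *dpy-13* and *sqt-3* than over the coding part, and are near 0 over the long fragments of *sqt-1* and *rol-6*.

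Scores before the start of *dpy-13* are described here for each cell type. The fragment just before the gene (chrIV:4235321-4235549) scored 2.66 and 3.91 in seam cells at L4 and 4.53 and 0.87 in seam cells at L2, against -1.12 and -0.11 in hypodermis at L4 and -0.24 and -0.026 in hypodermis at L2. All 4 seam cell values were above 0 and all 4 hypodermal values below. Its part between *dpy-13* and the divergent gene *zipt-2.2* is shown because the scores of the cell types did not overlap there, and ends 63 bp before the gene start.
before dpy-13, chrIV:4235366-4235551, + strand: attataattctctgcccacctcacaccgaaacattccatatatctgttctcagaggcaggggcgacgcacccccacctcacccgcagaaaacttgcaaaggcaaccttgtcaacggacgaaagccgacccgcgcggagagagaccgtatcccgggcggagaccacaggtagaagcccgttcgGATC
Over the 500 bp before the start, a window added after seeing the data, *dpy-13* had 4.32 and 4.02 in seam cells at L4 and 3.96 and 2.17 in seam cells at L2, against 0.53 and 0.98 in hypodermis at L4 and 1.29 and 1.13 in hypodermis at L2. All seam cell values lay above all hypodermal values. The difference by limma was 3.42 (SE 0.60, adjusted p = 0.661) at L4 and 1.85 (SE 0.60, adjusted p = 0.654) at L2, past the threshold at neither stage. Over all windows limma called 1 at L4 (0.005%), not of these genes, and 0 at L2, between the stages and in the interaction. The start of *zipt-2.2* is 249 bp away, so the window covers part of that gene too. The fragment next to it within *zipt-2.2* scored 6.12 and 4.38 in seam cells at L4 and 4.30 and 4.17 in seam cells at L2, against 1.72 and 1.66 in hypodermis at L4 and 2.55 and 2.45 in hypodermis at L2. Its seam cell values were likewise all above its hypodermal values. Over the whole of *zipt-2.2* the difference between seam cells and hypodermis was 0.56 (SE 0.25, adjusted p = 1) at L4 and 0.0063 (SE 0.25, adjusted p = 1) at L2 by limma.

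The window before *rol-6* had 4.004 and 3.28 in seam cells at L4 and 2.302 and 1.56 in seam cells at L2, against 1.58 and 0.76 in hypodermis at L4 and 2.57 and 1.78 in hypodermis at L2. Both values of seam cells at L4 were above the other 6. The difference between seam cells and hypodermis at L4 was 2.47 (SE 0.49, adjusted p = 0.737) in limma. At an unadjusted p under 0.05 the windows of *dpy-13* and *rol-6* were higher in seam cells at L4 (2.44% of all windows) and 0 lower (1.5%). At L2 that of *dpy-13* was higher (4.05%) and that of *sqt-3* lower (2.83%), with a limma difference of -1.42 (SE 0.23, adjusted p = 0.32). Between the stages in seam cells the windows of *rol-6*, *sqt-1*, *sqt-3* and *lon-3* were higher at L4 (2.08%) and 0 lower (3.88%). In hypodermis that of *sqt-1* was higher (1.04%) and 0 lower (2.63%). In the interaction those of *rol-6* and *sqt-3* were higher (2.34%) and 0 lower (2.28%). The window of *sqt-1* lies in a single fragment of 1540 bp that also overlaps the gene. It had only 0.82 and 0.53 in seam cells at L4 and 0.12 and 0.065 at L2. That of *sqt-3* lies in a single fragment of 812 bp that also overlaps the gene. These windows are thus not readings separate from the genes.

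The letters TGATAA, searched on both strands from 250 bases before to 50 after the gene start, were found at *dpy-17* and *rol-6*, and at 30.1% of 19865 genes. AGATAG was found at *ram-2*, and at 9.2% of genes.

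The scores were also compared by fragment length. Over fragments in protein-coding genes, the share of scores within 0.25 of 0 was 64.2% in fragments of up to 100 bp, 53.7% up to 300 bp, 49.5% up to 600 bp, 64.2% up to 1000 bp, 81.7% up to 1500 bp and 91.1% in longer ones, of which the highest averaged 1.89. The share was lowest at middle lengths and highest in the longest fragments. Of the 55 fragments that overlap the 10 genes, 3 were longer than 1000 bp, and they averaged 0.011 in *rol-6* (1808 bp), 0.43 in *sqt-1* (1540 bp) and 0.024 in *sqt-2* (2280 bp). The fragments next to them on the side of the gene averaged 2.86 in *rol-6* and 2.72 in *sqt-1*, and those on the far side -0.018 and -0.037. The neighbours of the fragment of *sqt-2* averaged 1.30 and 0.23. Without fragments over 1000 bp, an alternative added after seeing the data, *rol-6* had 5.30 and 4.94 in seam cells at L4 and 1.69 and 2.95 in seam cells at L2, and 4.79 and 2.44 in hypodermis at L4 and 3.04 and 1.19 in hypodermis at L2. *sqt-1* then had 5.50 and 5.08 in seam cells at L4 and 0.97 and 3.83 in seam cells at L2, and 5.07 and 4.62 in hypodermis at L4 and 4.52 and 2.92 in hypodermis at L2. *sqt-2* has no other fragment, so a low level and a fragment too long to read cannot be told apart.

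**Figure D4:**
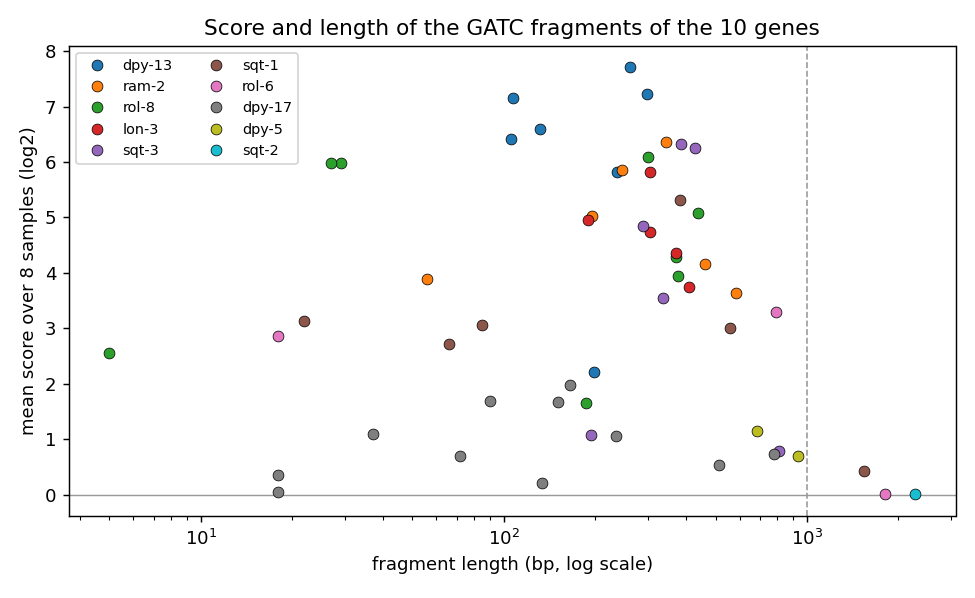
Mean score over the 8 samples (log2) against fragment length (bp, log scale) for the fragments that overlap the 10 genes, with a dashed line at 1000 bp. The 3 fragments beyond the line average 0.011, 0.024 and 0.43.

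Other genes of the cuticle were set beside these 10, whose median occupancy was 4.78 in seam cells at L4, 2.62 in seam cells at L2, 4.32 in hypodermis at L4 and 3.25 in hypodermis at L2. The 6 annular furrow collagens, which are needed for the circumferential grooves, had medians of 3.52 in seam cells at L4, 1.93 in seam cells at L2, 2.91 in hypodermis at L4 and 2.38 in hypodermis at L2. The highest was *dpy-8* (3.12 over the groups) and the lowest *dpy-10* (2.27). Their median L4 minus L2 difference was 1.59 in seam cells and 0.62 in hypodermis. By limma, 3 of 6 were higher at L4 in seam cells at an unadjusted p under 0.05 (3.31% of all genes). In hypodermis 0 were (0.931%). The 3 collagens of the adult struts had medians of 2.78 in seam cells at L4, 0.29 in seam cells at L2, 2.99 in hypodermis at L4 and -0.42 in hypodermis at L2. *bli-1*, the highest (1.82 over the groups), had 3.58 and 2.92 in seam cells at L4 and 0.11 and 0.53 in seam cells at L2, and 3.17 and 3.09 in hypodermis at L4 and 0.95 and 0.23 in hypodermis at L2, and *bli-2* was the lowest (0.82). The values of *bli-1* at L4 lay above those at L2 in both cell types. The median L4 minus L2 difference of the strut genes was 2.76 in seam cells and 2.54 in hypodermis. At an unadjusted p under 0.05 by limma, 2 of 3 were higher in seam cells (3.31% of all genes) and 3 in hypodermis (0.931%).

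The 10 genes that process, fold or crosslink collagens had medians of 1.10 in seam cells at L4, 0.61 in seam cells at L2, 0.91 in hypodermis at L4 and 1.25 in hypodermis at L2. The highest was *pdi-2*, which encodes a protein disulphide isomerase (3.07 over the groups), and the lowest was *dpy-31* (0.63), with 0.44 and 0.90 in seam cells at L4 and 0.52 and 0.34 in seam cells at L2, and 0.64 and 0.24 in hypodermis at L4 and 0.85 and 1.08 in hypodermis at L2. The values of *dpy-31* in hypodermis at L4 lay below those at L2, with a limma difference of -0.52 (SE 0.22, adjusted p = 1). At an unadjusted p under 0.05 by limma, 1 of 10 was higher at L4 in seam cells (3.31% of all genes). In hypodermis 0 were (0.931%). Against hypodermis, 2 were lower in seam cells at L2 (5.49%) and 1, *tsp-15*, at L4 (2.25%). In the interaction 1, *doxa-1*, was higher (3.2%).

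Outside these lists, the genes with at least 5 fragments whose 8 values came closest to the median of the 10 genes were *col-17* (root mean square distance 0.595 on the log2 scale), *col-107* (0.767) and *ZK180.5* (0.773). *col-17* had 4.51 and 3.58 in seam cells at L4 and 0.86 and 2.998 in seam cells at L2, and 4.26 and 3.68 in hypodermis at L4 and 3.89 and 2.74 in hypodermis at L2. The medians of the 10 genes were 4.76 and 4.76 in seam cells at L4 and 1.76 and 3.40 in seam cells at L2, and 4.53 and 4.10 in hypodermis at L4 and 3.51 and 2.71 in hypodermis at L2. Both were lowest in replicate 1 of seam cells at L2.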

How the data were processed

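Seam cells and hypodermis were profiled by TaDa at L4 and L2 (2 *dam:rpb-6* and 2 *dam:NLS-GFP* samples per group). The submitters' processing notes name Bowtie2 2.3.4, SAMtools 1.9 and WBcel235, and the methods damidseq_pipeline. The authors deposited log2 ratios per GATC fragment as 16 pairwise and 4 averaged profiles, so the depth of each sample is unknown and their normalization is part of the values. Their 4 gene lists (mean score, fragment number, FDR) were not used.

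Occupancy was the overlap-weighted mean score per protein-coding gene (Python 3.11.15, numpy 2.4.6, pandas 2.3.3). The values were replicate 1 over control 1 and replicate 2 over control 2, with the controls crossed in seam cells at L4. Groups were compared with limma 3.58.1 in R 4.3.3 (residual df 4, prior df 1.24, Benjamini-Hochberg adjusted p under 0.05, 5 contrasts), which was tested on simulated data. Groups of 2 cannot reach 0.05 in an exact permutation test. Per the protocol in the labels, the L2 and L4 animals were parts of the same populations. The main fit compared group means with no pairing. Only in alternative fits with a replicate block were replicate numbers taken to pair the stages within a strain. Deviations of same-numbered samples correlated with r = -0.121 in seam cells and 0.232 in hypodermis. Proteins were aligned with Biopython 1.88. Alternatives changed the controls, profiles, weighting, fragments, scaling, pairing and replicates. The text names all members, the highest and lowest gene of each list and the 3 genes most like the members. The members and lists were chosen with earlier results of these data known.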

Additional observations from a re-analysis of the deposited data

Results flagged for a closer look

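*sqt-3* was flagged because the order of the cell types was opposite at the stages. At L4 both seam cell values (5.33 and 5.78) were above both hypodermal values (5.19 and 4.74), and at L2 both seam cell values (2.29 and 4.70) were below both hypodermal values (5.09 and 5.39). The difference between seam cells and hypodermis was 0.59 (SE 0.78, adjusted p = 1) at L4 and -1.75 (SE 0.78, adjusted p = 0.529) at L2 in limma. The difference of the stage differences was 2.34 (SE 1.10, adjusted p = 0.878) by limma, which did not pass the threshold. It was 1.13 without replicate 1 of seam cells at L2 and 3.54 without replicate 2, and the difference between the cell types at L2 was -0.54 and -2.95. With the left-out profile of L4 seam cells put back alone, the difference at L4 was -1.55, so the order of the means was then the same at both stages. The difference of the stage differences was then 0.20. Over all genes, both seam cell values were above both hypodermal values at L4 for 19.8%, and below them at L2 for 15.2%. The share of genes with both was not counted.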

How the results depend on the processing

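limma called 0 genes in each of the 5 contrasts. In an alternative each replicate was averaged over both controls, so that the values of a group share controls. Replicate 1 of L4 seam cells was over control 2 alone, as its other profile stayed left out. With these values limma called 104 between the cell types at L4, 1061 at L2 and 680 between the stages in seam cells. It called 44 in hypodermis and 197 in the interaction. Among the 10 genes, *dpy-17* between the cell types at L2 (-1.60, adjusted p = 0.0405) and *lon-3* between the stages in seam cells (2.86, adjusted p = 0.0437) then passed in limma. Between the cell types at L2 it called 39 with the median over fragments, 4 with the unweighted mean, 2 with fragments inside the gene, and 1 each with profiles as deposited, fragments of 1 gene or scaled values. At L4 it called 1 each with profiles as deposited, the median or the window before the start. With the median it called 2 between the stages in seam cells and 7 in hypodermis, where fragments inside the gene or of 1 gene gave 1 each. Leaving out 1 replicate gave 0 at L4 and 0 to 2 at L2 between the cell types, 0 to 2 between the stages in seam cells, 0 to 1 in hypodermis and 0 in the interaction. With the replicate block by number alone, the count was 0 in each contrast. With it by number within a cell type, the count was 0 between the stages and in the interaction. That fit does not compare the group means of the cell types. Through the alternatives 17 of the 50 differences of the 10 genes were followed, those at an unadjusted p under 0.05 and those of *sqt-3* described above. With profiles as deposited, which put the left-out profile back and set replicate 2 of L4 seam cells over control 2, 10 had the other sign, and with that profile put back alone 9 had. Under both, these were in seam cells between the stages *dpy-13* (-1.55 and -1.29), *rol-8* (-1.28 and -1.32), *sqt-3* (-0.57 and -0.081), *lon-3* (-0.85 and -0.96) and *ram-2* (-1.64 and -1.05), between the cell types at L4 *dpy-13* (-2.57 and -2.32) and *sqt-3* (-2.04 and -1.55), and in the interaction *dpy-13* (-1.92 and -1.67) and *ram-2* (-1.48 and -0.88), and with profiles as deposited *sqt-3* in the interaction (-0.30). The other alternatives run left these signs as they were. Of 532 alternative values of the group occupancies, 431 lay within 1 SD. The 532 include values with 1 replicate of the group left out. With 2 replicates the remaining value always lies within 1 SD of their mean. Those values could not fall outside, so the 431 do not show how far leaving out a replicate moves a group. The causes of changes under the alternatives were not tested, and with the depth of each sample unknown no counting error can be given.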
